A study of Mus musculus with 6 samples.

Results

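A set of 35 genes that mark microglial identity was followed in BV2, a mouse microglial cell line immortalised in culture, and 28 of them had a row among the 12327 rows of the expression table. The genes were chosen by name, with earlier results of these data known, and found through their Ensembl identifiers in GENCODE mouse M21. Their shares beside those of all genes are therefore descriptive. They comprised 8 homeostatic surface and secreted genes, 8 transcription factors, 7 genes shared by microglia and other myeloid cells, the receptor pair Trem2 and Tyrobp, and 10 disease-associated genes. The comparison asked which of these genes the line expressed and how they differed when Gch1, which encodes the first enzyme of tetrahydrobiopterin synthesis, was knocked down.

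RNA depleted of ribosomal RNA was sequenced from 3 knockdown libraries (genotype label GCH1-KD, adenovirus Ad-shGCH1 for 48 hours) and 3 control libraries (label negative control, Ad-NC). The labels leave unclear whether the control cells received a virus. All 6 libraries came from 1 cell line grown in serum-containing medium, and nothing in the labels says that the libraries of a group were separate cultures. The p-values therefore reflect no more than library-to-library spread, which may be technical, and fewer expressing cells cannot be told apart from less RNA per cell.

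Microglia are the resident macrophages of the brain. Their identity rests on the lineage transcription factors PU.1, IRF8 and RUNX1, on signalling through the CSF1 receptor, and on TGF-beta from the brain environment, which maintains a homeostatic programme that includes Sall1, Tmem119 and Cx3cr1. Around plaques, dying neurons and demyelinated tissue, microglia lose homeostatic transcripts and gain a disease-associated programme (Apoe, Lpl, Cst7, Itgax, Spp1, Gpnmb), whose full form depends on the lipid-sensing receptor TREM2 and its adaptor TYROBP.

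Levels are in FPKM (fragment counts scaled to transcript length and to library depth), which may be set side by side between genes. Library sums were 224291 to 230292 FPKM, and depth, estimated from the steps of the values, was 5.25 to 5.58 Gb (gigabases aligned) for the controls and 6.32 to 7.61 Gb for the knockdown libraries. What this difference in depth contributes to the low genes was not tested. Gch1 was at 7.12 ± 0.20 FPKM in control cells and 3.19 ± 0.25 FPKM after knockdown (SD, n = 3 each), below every control in each knockdown library, as labelled. By limma on log2(FPKM + 1), 10 of 12222 genes tested (0.0818%) passed a Benjamini-Hochberg (BH) adjusted p of 0.05, the adjustment used throughout, and Gch1 was among them (limma adjusted p = 0.00542). Leaving out control library 2 gave 18 such genes, and leaving out either knockdown library 2 or knockdown library 3 gave 6.

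BV2 cells held the disease-associated genes at high levels and most homeostatic genes at low levels or without a row. Of the 10 disease-associated genes 9 had a row, with 6-library means from 53.0 FPKM for Itgax to 2349 FPKM for Spp1. Of the 8 homeostatic surface and secreted genes 3 had a row: Selplg at a mean of 13.4 FPKM, Cx3cr1 at 0.918 FPKM and Tmem119 at 0.583 FPKM. All 7 myeloid genes, both receptor genes and 7 of the 8 transcription factors had rows. The 7 members without a row were the homeostatic genes Gpr34, Siglech, Fcrls, Olfml3 and Slc2a5, the homeostatic regulator Sall1 and the beta-glucan receptor gene Clec7a, and they were not analysed here. Every row of the table reached a mean of 0.501 FPKM or more in at least 1 group. Cx3cr1 did so through control library 3 (3.16 FPKM) alone. Its other controls averaged 0.448 FPKM and its knockdown libraries 0.483 FPKM.

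Among the 10744 protein-coding rows, 23 of the 28 members lay at or above the median, 16 at or above the 90th percentile and 7 in the top 1%. The 7 were Spp1, Lyz2, Gpnmb, Lgals3, Apoe, Tyrobp and Cd9. Spp1 held rank 5 among all rows in each of the 6 libraries. The highest and the lowest member mean differed 4030-fold, and Spp1 alone made up 41.2% of the members' summed FPKM in the controls. Together the 28 members took 2.71% of the table's summed FPKM in control cells and 2.55% in the knockdown libraries.

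**Figure D1:**
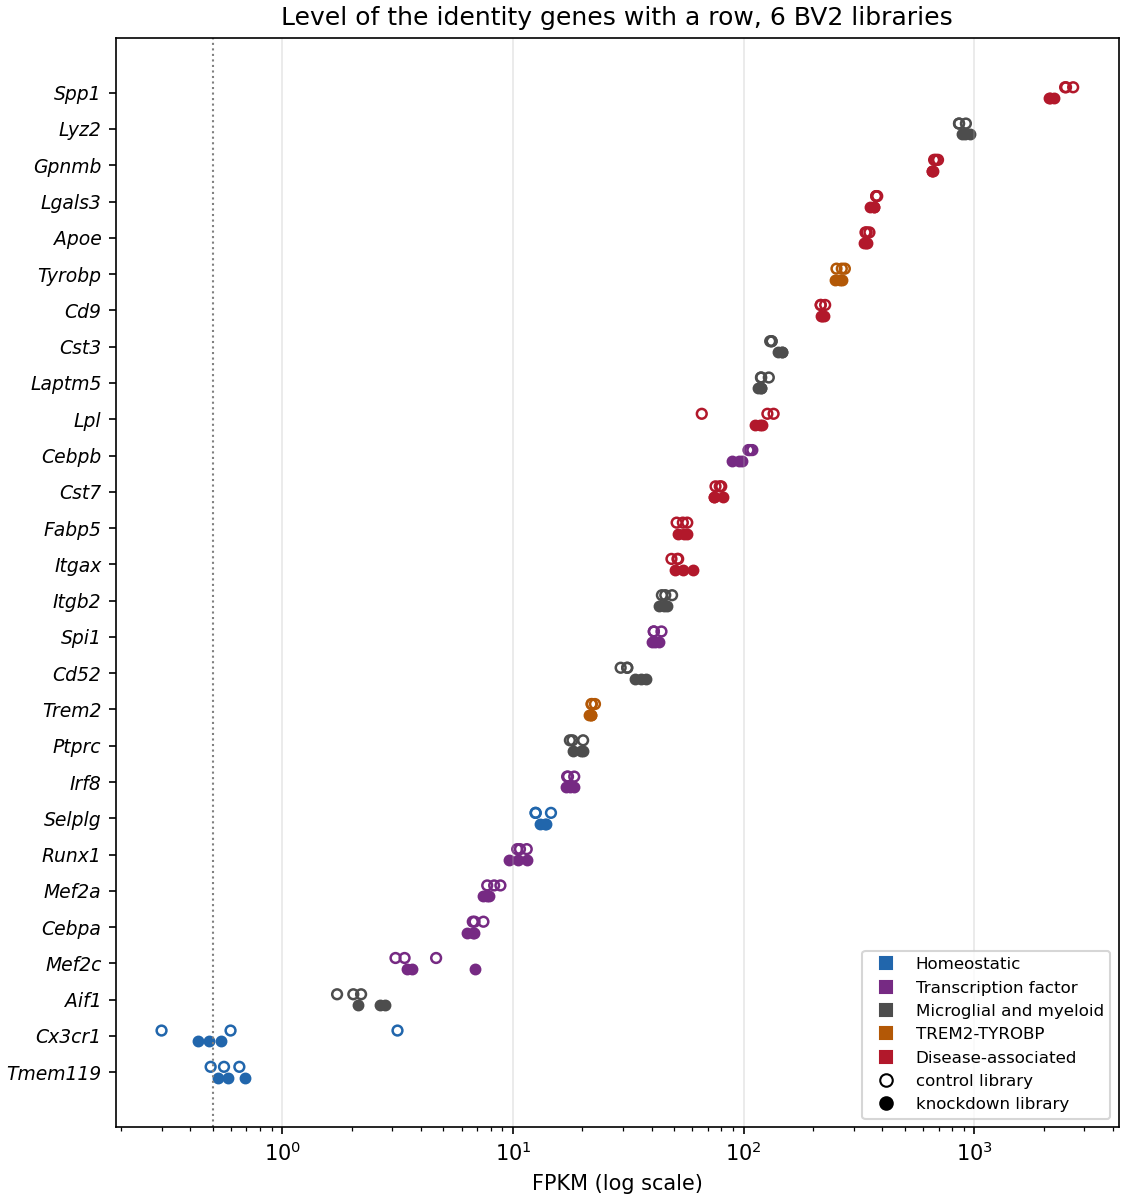
Level of the 28 identity genes with a row, in FPKM on a log axis, with open circles for the 3 control and filled circles for the 3 knockdown libraries and colours for the gene's role. The dotted line marks 0.5 FPKM. The disease-associated genes lie between 53.0 and 2349 FPKM on average, and the homeostatic genes Tmem119 and Cx3cr1 lie at the bottom of the scale.

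None of the 28 members passed the test after knockdown, a count of 0 by limma with BH adjustment against 0.0818% of all genes tested. At an unadjusted limma p under 0.05 there were 5 members (17.9%), against 11.3% of all genes. The 5 were Spp1 and Cebpb, below control, and Cd52, Cst3 and Aif1, above control. In 2 members (7.14%) every knockdown library lay above every control, against 9.99% of all genes, and in 5 (17.9%) every knockdown library lay below, against 8.36%. With 3 libraries against 3, the smallest two-sided exact permutation p for any single gene is 0.1. In all, 13 members were above control and 15 below, with a median log2 fold change of -0.02, against 0.01 over all genes tested. With median-of-ratios scaling 10 of the 28 were above control.

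The 95% intervals set each fold change against the spread between libraries only, which may be technical, so they do not bound a change between separate cultures. For 25 of 28 the limma interval of the fold change lay within 1.5-fold either way on the scale of log2(FPKM + 1). The 3 with wider intervals were Cx3cr1, Lpl and Mef2c. In Cx3cr1 and Lpl 1 library stood apart, and in Mef2c library 2 was the highest of each group. The pseudocount of 1 narrows these intervals for genes near 1 FPKM. Aif1, among the 25, had a log2 fold change of 0.24 (SE 0.10) as reported and 0.33 (SE 0.13) with a pseudocount of 0.1.

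**Figure D2:**
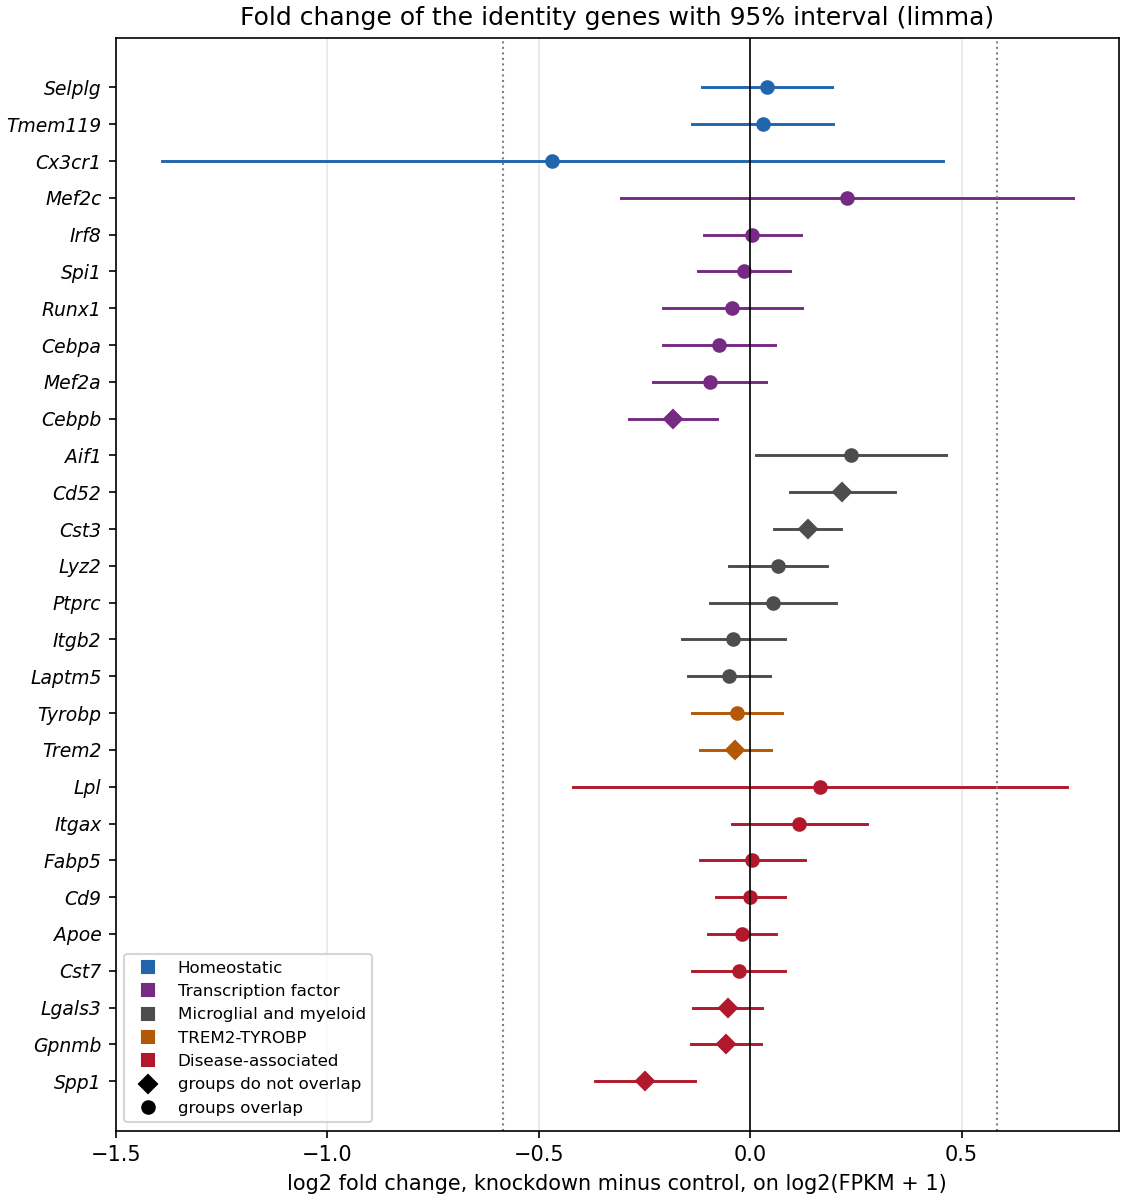
Log2 fold change of each member (knockdown minus control, on log2(FPKM + 1)) with its 95% limma interval, coloured by role, with diamonds where the groups do not overlap and dotted lines at 1.5-fold. Intervals of Spp1, Cebpb, Cd52, Cst3 and Aif1 leave out 0 before adjustment, and none passed the adjusted threshold.

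Among the homeostatic genes, Tmem119 (chromosome 5, 113793729 to 113800516, minus strand; GRCm38 here and below), a membrane protein gene used to tell microglia from other macrophages, was at the floor of the table. It was at 0.489, 0.652 and 0.559 FPKM in control libraries 1 to 3 and at 0.581, 0.689 and 0.528 FPKM after knockdown. The groups overlapped, and the log2 fold change was 0.03 (SE 0.07, limma adjusted p = 0.894). At most 6.12 to 10.6 kb of aligned sequence stood behind each of these values.

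Cx3cr1, the fractalkine receptor through which neurons signal to microglia (chromosome 9, 119901616 to 120069879, minus strand), stood at 0.597, 0.2998 and 3.16 FPKM in control cells and 0.430, 0.480 and 0.541 FPKM after knockdown. Control library 3 lay far above the other 5, all of which were under 0.6 FPKM. The log2 fold change of -0.47 (SE 0.39, limma adjusted p = 0.672) rests on that library. Without it the gene reached 0.5 FPKM in fewer than 3 libraries and left the test, and the other controls averaged 0.448 FPKM.

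Selplg, the P-selectin ligand PSGL-1 that microglia express in the healthy brain, was the homeostatic member with the highest level. It was at 12.5, 12.6 and 14.6 FPKM in control cells and 13.8, 13.2 and 13.9 FPKM after knockdown. The groups overlapped, at a log2 difference of 0.04 (SE 0.07, limma adjusted p = 0.838).

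The wider homeostatic programme was uneven in the same way. Of 24 further homeostatic genes, 18 had a row, and 0 of them passed the test or had an unadjusted limma p under 0.05. Their median log2 fold change was 0.02, with 11 above control and 7 below. The purinergic receptor genes P2ry12 and P2ry13, the complement gene C1qa, Sparc and Crybb1 were among those without a row and were not analysed here. The genes of a lysosomal protease and of a growth factor receptor were well expressed: over the control libraries Ctss averaged 307 FPKM, and the CSF1 receptor gene Csf1r lay between 49.6 and 50.6 FPKM. The 3 with the smallest p were the TGF-beta receptor gene Tgfbr1 (log2 0.14, SE 0.06), the leukotriene synthase gene Ltc4s (0.28, SE 0.13) and the ectonucleotidase gene Entpd1 (0.09, SE 0.05), with limma adjusted p of 0.472 to 0.574.

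TGF-beta is the brain signal that maintains homeostatic microglia, and 10 of the 11 genes of its axis listed here had a row. Of these 0 passed the test and 1, the ligand gene Tgfb1, had an unadjusted limma p under 0.05. Tgfb1 was at 39.0, 38.5 and 41.1 FPKM in control cells and 35.9, 34.5 and 37.0 FPKM after knockdown (log2 -0.14, SE 0.04, limma adjusted p = 0.349). In Tgfb1 and Smad3, 2 of the 10, all 3 knockdown libraries lay below all 3 controls, against 8.36% of all genes. For the receptor Tgfbr1, 1 of the 10, all 3 lay above, against 9.99% of all genes. The integrin gene Itgav had a log2 difference of -0.09. The median over the axis was 0.00.

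Among the identity transcription factors, the regulators of the myeloid lineage were present and Sall1 had no row. Over the 6 libraries Cebpb averaged 100.6 FPKM, Spi1, which encodes PU.1, 41.7 FPKM, Irf8 17.7 FPKM, Runx1 10.7 FPKM, Mef2a 7.98 FPKM, Cebpa 6.79 FPKM and Mef2c 4.19 FPKM. Spi1, the master regulator of the macrophage lineage, was at 41.9 ± 1.87 FPKM in control cells and 41.5 ± 1.52 FPKM after knockdown (SD, n = 3 each). Its log2 fold change was -0.01, with a 95% interval of -0.12 to 0.10.

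Cebpb, a factor that drives inflammatory gene expression in activated microglia (chromosome 2, 167688915 to 167690418), was the transcription factor with the smallest p. It was at 105, 109 and 107 FPKM in control cells and 89.0, 95.7 and 98.0 FPKM after knockdown. Every knockdown library lay below every control, at 88.1% of the control mean. The log2 difference was -0.18 (SE 0.04, limma adjusted p = 0.291; exact permutation p = 0.1), so it did not pass over all genes. Tmem189, whose exons overlap Cebpb on the opposite strand, was at 89.1 FPKM in control cells and 88.3 FPKM after knockdown. The kit marks strand, but whether the quantification used it is not stated, so reads of the pair may not be told apart, and the same holds for Mef2a and the overlapping Lysmd4.

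The MEF2 factors act on the homeostatic enhancers of microglia. Mef2a was at 8.29, 8.83 and 7.74 FPKM in control cells and 7.85, 7.45 and 7.75 FPKM after knockdown (log2 -0.10, SE 0.06, limma adjusted p = 0.548). Mef2c (chromosome 13, 83504034 to 83667080) was at 3.39, 4.65 and 3.10 FPKM in control cells and 3.67, 6.85 and 3.47 FPKM after knockdown. Knockdown library 2 was the highest of the 6 and control library 2 came next, and the other 4 lay between 3.10 and 3.67 FPKM. The log2 fold change of 0.23 (SE 0.23, limma adjusted p = 0.726) became -0.03 (SE 0.14) without knockdown library 2.

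Cebpa, which sustains microglial and macrophage differentiation, was at 6.82, 6.70 and 7.45 FPKM in control cells and 6.76, 6.30 and 6.70 FPKM after knockdown (log2 -0.07, SE 0.06). The groups overlapped, as they did for Irf8 and Runx1. Irf8 had a 95% interval of -0.11 to 0.12 around a log2 fold change of 0.01, and Runx1 one of -0.21 to 0.12 around -0.04.

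Of 27 further myeloid transcription factors 25 had a row, 17 above control and 8 below, with a median log2 fold change of 0.03, and 53% of all genes were above control. None of the 25 passed (a count of 0 by limma), and 4 had an unadjusted limma p under 0.05, against 11.3% of all genes. The lipid and inflammation regulator Bhlhe40 had a log2 difference of -0.13 (SE 0.04), Runx2 at -0.18 (SE 0.06) and Cebpd at 0.32 (SE 0.11), with limma adjusted p of 0.327 to 0.366. All 3, named for having the smallest p, had groups that did not overlap. Over the 25, every knockdown library lay above every control in 3 and below in 2, against 9.99% and 8.36% of all genes. In Cebpd, the C/EBP-delta gene, the knockdown mean was 5.79 FPKM and the control mean 4.48 FPKM, the opposite order to that in Cebpb.

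PU.1 binds purine-rich sequences, often with GGAAGT or the longer GAGGAAGT. These letters were sought on both strands of the RefSeq promoters of the members (GRCm38.p6, 250 bases before to 50 after each start). Promoters were found for 26 members. GGAAGT or its reverse complement ACTTCC was in 10 of them, 7 of the 20 with a row and 3 of the 6 without (Fcrls, Sall1 and Siglech), against 26.5% of all genes with a promoter and 34.1% of those with a row in the table. The longer GAGGAAGT, which contains the shorter one, was in 1 member, Spp1, against 3.69% of all genes. The stretches around the match are shown for the 4 members in the top 5% of protein-coding levels and for Itgax, 5′ to 3′ on the gene's strand with the 6 matching bases in capitals. They describe letters in these windows and are not measured binding sites.
Spp1, chr5:104434978-104435027, plus strand: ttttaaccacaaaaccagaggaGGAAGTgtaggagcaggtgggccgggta
Lyz2, chr10:117282345-117282394, minus strand: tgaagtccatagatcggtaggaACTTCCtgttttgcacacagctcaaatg
Laptm5, chr4:130913231-130913280, plus strand: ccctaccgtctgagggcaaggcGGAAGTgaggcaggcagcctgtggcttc
Cst7, chr2:150570331-150570380, plus strand: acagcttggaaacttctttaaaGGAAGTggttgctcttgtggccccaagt
Itgax, chr7:128129407-128129456, plus strand: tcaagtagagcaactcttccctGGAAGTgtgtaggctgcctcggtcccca

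The match began 111 bases before the start in Spp1, 100 in Lyz2, 63 in Laptm5, 62 in Cst7 and 121 in Itgax, and Itgax held another 41 bases before its start. In these 5 members the log2 fold changes after knockdown lay between -0.25 for Spp1 and 0.12 for Itgax, on both sides of 0. The other members with a row and a match, Mef2c and Ptprc, had log2 fold changes of 0.23 and 0.05.

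Of the 7 genes shared by microglia and other myeloid cells, 5 were above control and 2 below, with a median log2 fold change of 0.07. In Cst3 and Cd52 every knockdown library lay above every control (9.99% of all genes), and these and Aif1 had an unadjusted limma p under 0.05 (11.3% of all genes). None passed over all genes.

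Cd52, a small glycosylphosphatidylinositol-anchored surface glycoprotein of leukocytes (chromosome 4, 134082448 to 134095082, minus strand), stood at 31.3, 31.3 and 29.3 FPKM in control cells and 37.9, 33.8 and 35.8 FPKM after knockdown. Every knockdown library lay above every control, at 116.9% of the control mean. The log2 difference was 0.22 (SE 0.05, limma adjusted p = 0.287; exact permutation p = 0.1).

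Cst3, which encodes the secreted cysteine protease inhibitor cystatin C (chromosome 2, 148871722 to 148875692, minus strand), stood at 130.4, 132.3 and 132.2 FPKM in control cells and 140.8, 146.8 and 146.6 FPKM after knockdown. Every knockdown library lay above every control, and the controls lay between 130.4 and 132.3 FPKM. On the log2 scale the difference was 0.14 (SE 0.03, limma adjusted p = 0.291; exact permutation p = 0.1).

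Aif1, which encodes the microglial stain IBA1, an actin-bundling protein (chromosome 17, 35170991 to 35176068, minus strand), was low in this line. It was at 1.73, 2.03 and 2.20 FPKM in control cells and 2.80, 2.13 and 2.65 FPKM after knockdown. Knockdown library 2 lay inside the range of the controls and the other 2 above it. The log2 fold change was 0.24 (SE 0.10, limma adjusted p = 0.417), and at most 8.44 to 18.6 kb of aligned sequence stood behind each value.

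Lyz2, lysozyme M, a standard marker of myeloid cells, was at 920, 859 and 858 FPKM in control cells and 911, 887 and 961 FPKM after knockdown, with overlapping groups (log2 0.07, SE 0.05, limma adjusted p = 0.636). Its near-identical neighbour Lyz1 was at 1.53 FPKM in control cells and 2.02 FPKM after knockdown, and how reads shared by the pair were assigned is not given in the sources used here. Ptprc, which encodes the pan-leukocyte phosphatase CD45, was at 18.6 ± 1.32 FPKM in control cells and 19.4 ± 1.08 FPKM after knockdown (SD, n = 3 each). The lysosomal membrane protein gene Laptm5 was at 122 ± 5.55 and 118 ± 1.72 FPKM, and the beta-2 integrin gene Itgb2 at 46.3 ± 2.41 and 45.0 ± 1.96 FPKM, in the same order. The log2 differences of these 3 genes lay between -0.05 and 0.05.

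The receptor pair of the disease-associated programme was close to its control level, Trem2 at 97.5% and Tyrobp at 97.8% of the control mean. Trem2 (chromosome 17, 48346401 to 48354147), whose product senses lipids and apolipoproteins, was at 22.7, 21.9 and 21.99 FPKM in control cells and 21.8, 21.4 and 21.7 FPKM after knockdown. The 3 knockdown libraries lay just below the controls, and the 95% interval of the log2 fold change of -0.03 ran from -0.12 to 0.05 (limma adjusted p = 0.736). Tyrobp, the adaptor DAP12 that carries the TREM2 signal, was at 275, 266 and 253 FPKM in control cells and 249, 262 and 266 FPKM after knockdown. The groups overlapped, and the interval ran from -0.14 to 0.08 around -0.03. Over the 6 libraries the adaptor transcript averaged 262 FPKM and the receptor transcript 21.9 FPKM.

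Downstream of this pair, 18 of 19 signalling and shedding genes had a row, and 0 passed the test. The kinase gene Syk was at 19.0 FPKM in control cells and 18.3 FPKM after knockdown. The phospholipase gene Plcg2 was at 90.1 and 86.9 FPKM, in the same order. Of the 18, these 2 had every knockdown library below every control and 1, Hcst, above, against 8.36% and 9.99% of all genes. The only gene of the 18 with an unadjusted limma p under 0.05 was Hcst, which encodes the partner adaptor DAP10. Hcst was at 2.88, 3.83 and 4.08 FPKM in control cells and 5.06, 4.70 and 5.13 FPKM after knockdown (log2 0.38, SE 0.10, limma adjusted p = 0.307). The kinase subunit Pik3cd had a log2 difference of 0.11 (SE 0.06). The median over the 18 was 0.00.

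Among the 9 disease-associated genes with a row, 3 had knockdown libraries below every control (Spp1, Gpnmb and Lgals3) and 0 had them above every control, where 8.36% of all genes tested lay below and 9.99% above. Over the 9, 4 were above control and 5 below, with a median log2 fold change of -0.02.

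Spp1, which encodes the secreted phosphoprotein osteopontin (chromosome 5, 104435118 to 104441050), was at 2683, 2498 and 2476 FPKM in control cells and 2099, 2210 and 2130 FPKM after knockdown. The groups did not overlap, and the knockdown mean was 84.1% of the control mean. The log2 fold change was -0.25 (SE 0.05, 95% interval -0.37 to -0.13), with a limma p of 0.00157 and a limma adjusted p of 0.24 (exact permutation p = 0.1). With quantile normalization the fold change is 0 by construction, since Spp1 held the fifth rank in every library. The transcript Gm42793, which shares exonic sequence with Spp1 on the same strand, was at 56.6 FPKM in control cells and 46.6 FPKM after knockdown, with overlapping groups.

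Gpnmb, a lysosome-associated glycoprotein of lipid-laden macrophages, was at 696, 670 and 682 FPKM in control cells and 661, 652 and 656 FPKM after knockdown, or 96.2% of control. Lgals3, which encodes the galactoside-binding protein galectin-3, was at 379, 376 and 376 FPKM in control cells and 353, 368 and 369 FPKM after knockdown, or 96.4% of control. Both differences were small, with non-overlapping groups and log2 fold changes of -0.06 and -0.05 (limma adjusted p = 0.564 and 0.59). Itgax, the CD11c integrin, was at 52.0, 51.7 and 48.7 FPKM in control cells and 60.6, 50.4 and 54.7 FPKM after knockdown. Its groups overlapped, at a log2 difference of 0.12 (SE 0.07, limma adjusted p = 0.543).

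**Figure D3:**
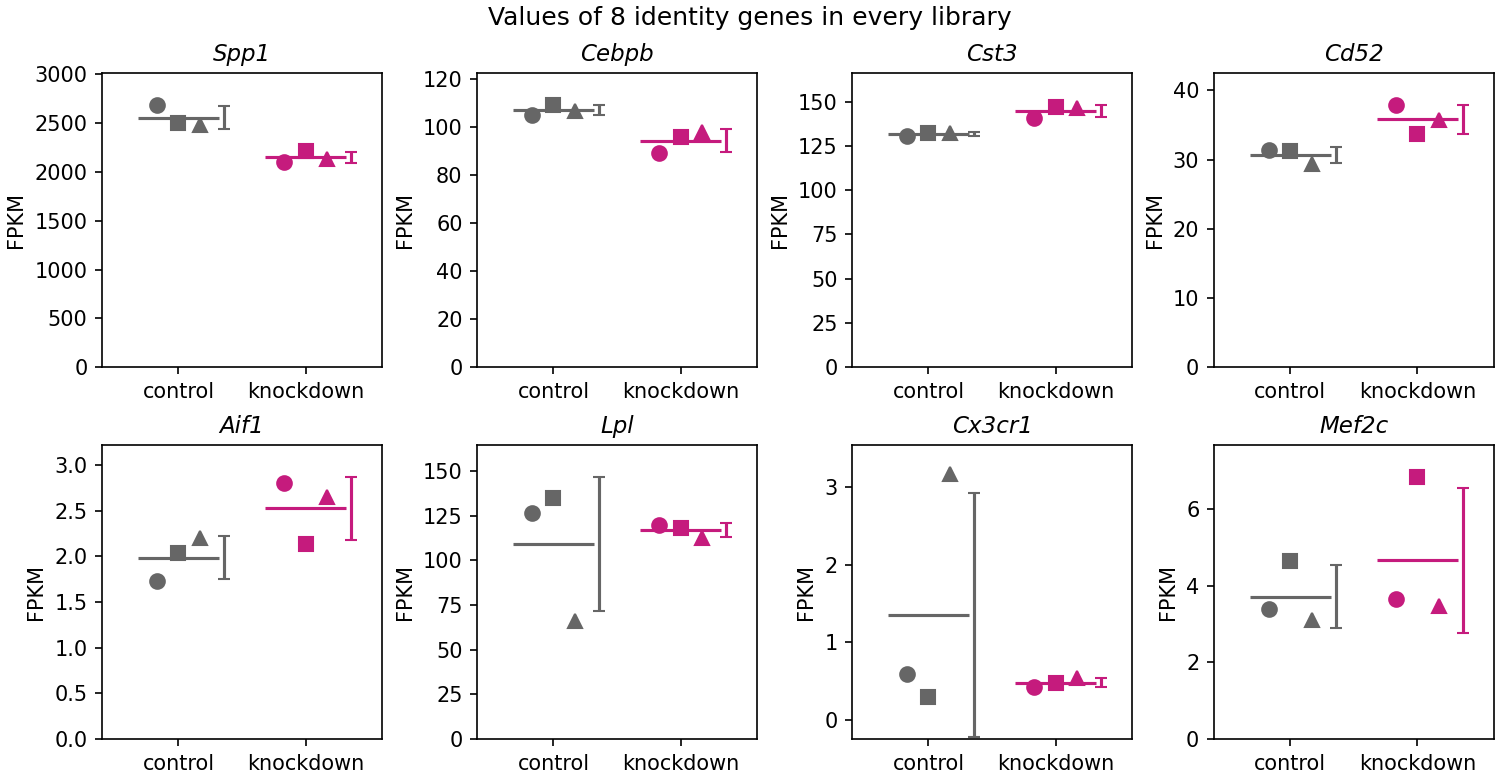
FPKM of 8 identity genes in every library (circle, square and triangle for libraries 1, 2 and 3 of each group), with the group mean as a line and its SD as a bar, n = 3. Spp1 and Cebpb lie lower and Cst3 and Cd52 higher in all 3 knockdown libraries. In Lpl and Cx3cr1 1 library stands apart, and in Mef2c library 2 is the highest of each group.

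Lpl, which encodes lipoprotein lipase, the enzyme that releases fatty acids from lipoprotein triglycerides (chromosome 8, 68880491 to 68907448), was taken up after its values were seen. It was at 126.8, 134.9 and 65.9 FPKM in control cells and 120.0, 117.9 and 112.5 FPKM after knockdown. Control library 3 lay well below the other 5, and the remaining controls lay above every knockdown library. The log2 difference of 0.16 (SE 0.25, limma adjusted p = 0.825) turned to -0.16 (SE 0.05, limma adjusted p = 0.444) without control library 3. A value at least 1.5-fold below all 5 others was found in control library 3 for 48 of 11227 genes with a mean of at least 1 FPKM (0.428%), and in the other libraries for 23 to 33 genes. These counts may include genes without any signal in several libraries.

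The other disease-associated genes held their level closely. Apoe, the lipid carrier, was at 344 ± 6.90 FPKM in control cells and 339 ± 5.05 FPKM after knockdown, and the tetraspanin gene Cd9 at 219 ± 5.67 and 219 ± 2.99 FPKM. Cst7, which encodes the endosomal cystatin F, was at 78.1 ± 2.29 and 76.7 ± 3.97 FPKM, and the fatty acid-binding protein gene Fabp5 at 54.3 ± 2.88 and 54.4 ± 2.48 FPKM (SD, n = 3 for each group). The 95% intervals of the log2 fold changes of these 4 genes all lay between -0.14 and 0.13.

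Of 25 further disease-associated genes 23 had a row, and 0 of the 23 passed while 8 had an unadjusted limma p under 0.05, against 11.3% of all genes. In 8 of them every knockdown library lay below every control and in 2 above, against 8.36% and 9.99% of all genes. Since the list was chosen with earlier results of these data known, these shares are descriptive and no excess was tested. The growth factor gene Csf1 was at 41.8 FPKM in control cells and 33.2 FPKM after knockdown (log2 -0.32, SE 0.05, limma adjusted p = 0.156). In the same order, Ank was at 34.1 and 31.0 FPKM, and the lysosomal protease gene Ctsd at 594 and 508 FPKM. The median over the 23 was -0.02. The lysosomal genes Ctsz (608.5 FPKM in control cells and 603.5 FPKM after knockdown) and Npc2 (95.9 and 96.8 FPKM) differed by less than the spread between libraries.

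**Figure D4:**
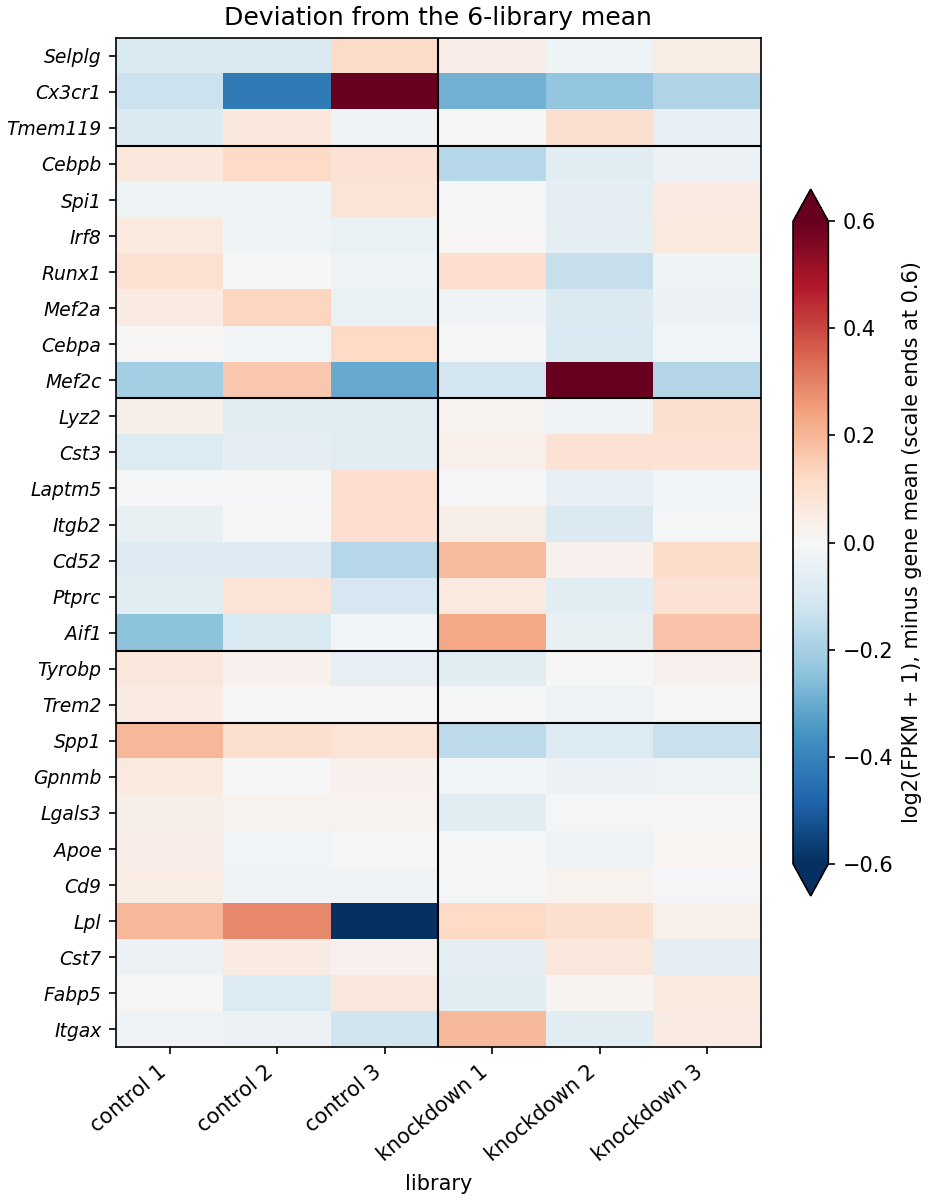
Deviation of each library from the 6-library mean on log2(FPKM + 1), 1 row per member, ordered by role and then by level, with the controls left of the vertical line. Spp1 and Cebpb are red in the controls and blue in the knockdown libraries, and the darkest cells are Cx3cr1 and Lpl in control library 3 and Mef2c in knockdown library 2.

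Markers of other cells mostly had no row, but some of those with a row were well expressed. Of 14 genes of border-associated macrophages and monocytes 4 had a row: the mannose receptor gene Mrc1, the chemokine gene Pf4, the invariant chain gene Cd74 and Ms4a7. Over the 6 libraries Cd74 averaged 97.0 FPKM, Pf4 73.6 FPKM, Mrc1 4.09 FPKM and Ms4a7 0.739 FPKM. Their summed level was 154.3 to 197 FPKM in control cells and 152.6 to 199 FPKM after knockdown. Mrc1 reached at most 3.54 FPKM in a control and at least 4.32 FPKM in a knockdown library, so the groups did not overlap (log2 0.44, SE 0.10, limma adjusted p = 0.269). It was the 1 gene of the 4 with every knockdown library above every control, against 9.99% of all genes. Ccr2, Lyve1, Cd163, the class II genes H2-Aa, H2-Ab1 and H2-Eb1, and 4 further genes of the list had no row. Of granulocyte and neuronal markers 0 of 7 and 0 of 6 had a row. The astrocyte, oligodendrocyte, fibroblast and mural, endothelial and lymphocyte lists held Aldoc, Cnp, Acta2, Vwf with Flt1, and Lck, with log2 fold changes of -0.19 for Lck to 0.13 for Vwf and 0 genes past the test. Aldoc averaged 26.3 FPKM and Flt1 22.2 FPKM over the 6 libraries, and the others lay between 0.513 and 5.28 FPKM.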

How the data were processed

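Per the submitters' processing notes, the authors used HISAT2, StringTie and edgeR, without versions or roles, and named the build hg38, although every identifier is a mouse gene. Neither strand setting nor annotation release is stated. The deposited table states no unit. Its values behave as FPKM computed by the authors: value times transcript length fell within 0.1 of a whole step in 71.2% to 73.1% of single-transcript genes (20.0% by chance), and depth was estimated from that step.

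Names and coordinates came from GENCODE M21 (12306 of 12327 identifiers matched without version). Genes at 0.5 FPKM or more in 3 of 6 libraries were tested with limma 3.58.1 (R 4.3.3; empirical Bayes, mean-variance trend, no covariate) on log2(FPKM + 1), adjusted over all genes, and the code was tested on simulated data. Fold changes are on that scale, which understates those of low genes. Other calculations used Python 3.11.15. Members and lists were chosen with earlier results of these data known. Named are all members; values in every library are given for the 4 of each role with the smallest p and those with non-overlapping groups; of each context list the 3 with the smallest p. Genes named outside this rule were chosen after their values were seen. Alternatives were a replicate block, each library left out, other filters, pseudocounts and scalings, GC and length trends removed (loess, span 0.3), robust moderation and no trend.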

Additional observations from a re-analysis of the deposited data

How the results depend on the processing

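Under the 16 alternatives 0 members passed, as reported. Of 441 comparisons of a member's fold change with its reported value, 414 kept the direction, 2 (Spp1 and Apoe with quantile normalization) were 0 to 4 decimals, and 25, in 10 members, changed sign, all of them uncalled and none larger than 0.162 on the log2 scale. Genes called over the whole table numbered 10, and 6 to 18 with each library left out (18 without control library 2, 6 without knockdown library 2 or 3). Blocking on replicate number left 0 genes past the threshold (1330 at an unadjusted limma p under 0.05), and Gch1 had a limma BH adjusted p of 0.0604 at a log2 fold change of -0.96. Deviations of same-numbered libraries from their group means correlated at 0.095, 0.059 and 0.094 across genes, and those of differently numbered libraries at -0.1 to 0.013. The labels state no pairing, and the cause of the lost calls was not tested. Every library had its highest correlation with the one of the same number, which is a property of the data and is not stated by the design.

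With median-of-ratios scaling the log2 fold changes of Cd9, Fabp5 and Irf8 were -0.0089, -0.0043 and -0.0036. With quantile normalization those of Cd9, Tmem119 and Tyrobp were -0.0026, -0.0105 and 0.0377, and with GC and length trends removed those of Cd9 and Spi1 were -0.0319 and 0.0105. With each library left out, the fold change ranged from -0.011 to 0.022 for Cd9, -0.035 to 0.040 for Fabp5, -0.024 to 0.036 for Irf8, -0.0716 to 0.0001 for Itgb2, -0.16 to 0.35 for Lpl, -0.031 to 0.37 for Mef2c, -0.10 to 0.016 for Runx1, -0.041 to 0.022 for Spi1 and -0.010 to 0.069 for Tmem119. Of the 28 members with a row, 27 reached a mean of 1 FPKM in the higher group and 24 a mean of 5 FPKM. Cx3cr1 is among the 27 through control library 3 alone, without which its control mean was 0.448 FPKM. The 3 lowest members rest on few reads, whose number is unknown.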

Other observations

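Some genes around the microglial programme varied between libraries in ways that did not follow the groups. All were picked after their values were seen, and no explanation was tested. Itgam, the CD11b integrin gene whose partner subunit is Itgb2, was at 19.7, 31.2 and 7.22 FPKM in control cells and 19.4, 7.10 and 23.0 FPKM after knockdown, while Itgb2 stayed between 42.9 and 49.0 FPKM. The invariant chain gene Cd74 was at 76.2, 79.1 and 117 FPKM in control cells and 119.9, 71.0 and 119.1 FPKM after knockdown. The retinoid receptor gene Rxra was at 12.6, 29.3 and 13.4 FPKM in control cells and 11.99, 25.5 and 27.98 FPKM after knockdown. The sheddase gene Adam17 was at 19.8 FPKM in control library 3 and 32.5 to 34.9 FPKM in the other 5, and the TREM2 signalling adaptor gene Grb2 at 24.3 FPKM in knockdown library 2 and 46.5 to 49.9 FPKM in the other 5. Golm1, of the homeostatic list, was at 17.1 FPKM in control library 2 and 6.42 to 7.38 FPKM elsewhere. In Lpl, given above, 1 such library sets the sign of the fold change.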
